A study of Mus musculus with 6 samples.

Results

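The potassium channel genes described here are the mouse genes whose symbol starts with Kcn, followed by a family letter and a number, leaving out Kcnd2, Kcnd3, Kcnip1 to Kcnip4, Kcnc1 and Kcnc2. The rule uses the symbol and no measured value, and it was set with earlier results of these data known. They numbered 89 of 25696 mouse genes over all 6 gene tables of the series, and 72 of them were listed in every table. By symbol, 36 were voltage-gated pore or modifier subunits, 15 inward rectifiers, 14 two-pore leak channels and 12 subunits of calcium- or sodium-activated channels. Another 7 were small or cytoplasmic partner subunits (Kcnab1 to Kcnab3, Kcne1, Kcne1l, Kcne2 and Kcne4). The remaining 5 were noncoding transcripts that carry a channel gene's symbol, among them Kcnq1ot1, so the set is not made of channel proteins alone.

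Potassium channels let potassium leave or enter a cell down its electrochemical gradient and so set the resting potential, the shape of the action potential and the rate of firing. Voltage-gated members open on depolarization, inward rectifiers pass current near rest and include G-protein-gated, ATP-sensitive and glial forms, two-pore members give a steady leak, and calcium- or sodium-activated members couple firing to ions that have entered. In the cortex, excitatory neurons carry M-current, delayed-rectifier and large-conductance calcium-activated channels, and astrocytes and oligodendrocytes carry inward rectifiers that take up extracellular potassium.

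The series tested ways to obtain nuclei for RNA sequencing from formalin-fixed, paraffin-embedded (FFPE) brain. The labels describe cortex of C57BL/6J mice aged 8 to 12 weeks, cut as 50 µm scrolls, and give no genotype, sex or number of animals. Paraffin was removed in 1 of 3 ways (mineral oil with heating, xylene with heating, or xylene at room temperature), the scrolls were rehydrated through ethanol, and nuclei were sorted into plate wells. Nuclei from frozen tissue are named in the deposited annotation only, not in the labels.

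Bulk wells held 10 or 100 nuclei in SCRB-seq (16 wells a group, 3' tag counting) and 10, 50 or 100 nuclei in SMART-Seq2 (3 wells a group, 1 of each size, reads along the transcript). All wells of a chemistry belong to 1 deposited sample, so a p-value below measures the spread between wells, which may be technical. In SCRB-seq each of the 8 groups of method and nuclei number was also its own library pool, so that pool and group cannot be told apart. Single nuclei in plates numbered 143 FFPE and 137 frozen in the whole-series table, from 2 plates each. The FFPE plates are annotated as left hemisphere and the frozen plates as right, so preservation and side cannot be told apart. A first FFPE batch held 98 nuclei, a second held 134 that are also in the whole-series table, and the table of batch 3 held 0. The droplet experiment held 7031 FFPE nuclei in 12 annotated classes and no frozen nuclei.

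Depth ran from 7512 to 167144 mouse counts per SCRB-seq well and from 270363 to 942966 per SMART-Seq2 well. A count of 0 then allows up to 399.4 counts per 1000000 mouse counts (CPM) in the shallowest SCRB-seq well and up to 11.1 CPM in the shallowest SMART-Seq2 well (3 counts of the well's total, counting error only). Marker genes did not match the cortex label evenly. In SMART-Seq2 wells, 6 cortical excitatory markers summed to a median of 2130 CPM in frozen wells (1483 to 2469), against 136.0, 305.4 and 354.7 CPM with mineral oil, heated xylene and room-temperature xylene (78.0 to 383 over the 9 wells). The cerebellar granule markers (6 of 7 in the table) went the other way, at 1.12 CPM in frozen wells (0 to 3.70, with Gabra6, Cbln3, Cbln1, Pax6 and Zic1 at 0) and 1681, 932.4 and 1090.0 CPM in the 3 FFPE groups (642.7 to 2101). SCRB-seq wells showed the same contrast, with excitatory medians of 2104 CPM frozen and 391.9 to 558.2 CPM in the FFPE groups, and granule medians of 4.08 CPM frozen and 1207 to 1688 CPM in the FFPE groups. Oligodendrocyte markers in SMART-Seq2 were at 118.4 CPM frozen and 460.4, 2106 and 1092 CPM in the FFPE groups, and astrocyte markers at 514 CPM frozen and 1043, 2302 and 1490.0 CPM (4 of 6 listed genes in the table). Inhibitory markers were at 351.4 CPM frozen and 639.4, 1837 and 1251 CPM. In SCRB-seq, oligodendrocyte markers were at 362.0 CPM frozen and 181.9, 1953 and 1845 CPM in the FFPE groups, and inhibitory markers at 321.3 CPM frozen and 326.5, 1076 and 758.6 CPM. SCRB-seq astrocyte markers were at 436.2 CPM frozen and 1100, 1023 and 782.0 CPM. Excitatory and granule markers thus separated FFPE from frozen wells in both chemistries. Their part in the channel results was not tested. In bulk wells, fewer cells of a type and less RNA per cell cannot be told apart.

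The stretches upstream of 3 channel genes that were lower in FFPE than in frozen SMART-Seq2 wells are shown, to give the sequence at the start of the genes on which that comparison turns. They were chosen after the values were seen, as the genes of that comparison with 1 listed start whose window lay wholly outside the annotated gene. Each run is the 250 bases before the start in the RefSeq table (GRCm38.p6), 5′ to 3′ on the gene's strand. Capitals mark any of 3 motifs, searched on both strands and not overlapping one another here. The first is a GC box, written GGGCGG. The second is a TATA box, written TATAAA and found in none of the windows. The last is a CCAAT box, named by its letters.
Kcna4, chr2:107290339-107290588, plus strand: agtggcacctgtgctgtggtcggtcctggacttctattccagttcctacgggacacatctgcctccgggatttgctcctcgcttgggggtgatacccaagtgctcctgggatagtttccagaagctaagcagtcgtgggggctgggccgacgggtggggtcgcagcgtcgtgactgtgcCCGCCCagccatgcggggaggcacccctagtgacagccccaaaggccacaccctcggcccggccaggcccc
Kcnh5, chr12:75177333-75177582, minus strand: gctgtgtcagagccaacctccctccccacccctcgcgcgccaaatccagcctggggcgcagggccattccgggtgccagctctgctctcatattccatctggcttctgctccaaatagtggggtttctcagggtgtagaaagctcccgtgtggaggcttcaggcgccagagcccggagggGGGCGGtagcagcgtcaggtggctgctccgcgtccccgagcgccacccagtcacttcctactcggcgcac
Kcnh7, chr2:63184288-63184537, minus strand: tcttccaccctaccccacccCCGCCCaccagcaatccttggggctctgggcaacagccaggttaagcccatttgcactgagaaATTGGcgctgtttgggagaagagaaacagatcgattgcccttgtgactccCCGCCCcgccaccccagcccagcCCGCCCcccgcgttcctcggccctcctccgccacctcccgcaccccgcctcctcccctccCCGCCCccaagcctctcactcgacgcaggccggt
All 3 windows were rich in C and G, at 65.2% (Kcna4), 65.6% (Kcnh5) and 67.6% (Kcnh7), with 14, 16 and 16 CG pairs, against medians of 52.4% and 6 pairs over all 32851 listed promoters. Kcnh7 held 4 GC boxes and 1 CCAAT box, Kcna4 and Kcnh5 held 1 GC box each, and none held TATAAA. Over 78 listed starts of 62 members, 46.15% held a GC box, 3.85% TATAAA and 25.64% CCAAT, against 32.74%, 12.37% and 33.85% of all listed promoters. A match here describes letters, not binding. Kcnh4 and Kcnma1 had windows that overlapped the annotated gene, and Kcnq3 had no entry.

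Summed over all members, channel genes took a smaller part of the mouse counts in FFPE wells than in frozen wells. In SMART-Seq2, they held 1.23% ± 0.130 (SD, n = 3) of counts in frozen wells, ranging from 1.12 to 1.37%. They held 0.529% ± 0.0670 with mineral oil, 0.708% ± 0.124 with heated xylene and 0.852% ± 0.0429 with room-temperature xylene (SD, n = 3 each). No FFPE well reached the lowest frozen well, since the highest was at 0.888%. Most of this SMART-Seq2 gap lay in Kcnma1 alone, whose wells are given below. Against room-temperature xylene its difference was about as large as the gap. The shares were not recomputed without it. In SCRB-seq, the share was 0.792% ± 0.0983 frozen, 0.493% ± 0.150 with mineral oil, 0.558% ± 0.0706 with heated xylene and 0.562% ± 0.118 with room-temperature xylene (SD, n = 16 each). There the groups overlapped, with frozen wells from 0.589 to 0.989% and FFPE wells from 0.280 to 0.743%. The 8 genes left out by the rule held 1.15% of pooled frozen SMART-Seq2 counts and 2.25, 1.83 and 1.72% of pooled FFPE counts, with the methods ordered as above. In SCRB-seq they were at 0.685% frozen and 1.04, 0.670 and 0.840%, with heated xylene below frozen. The median number of members detected per well was 56 of 81 in frozen SMART-Seq2 wells and 42, 50 and 51 in the FFPE groups.

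The large-conductance calcium-activated Kcnma1, the M-current gene Kcnq3, the ether-a-go-go family genes Kcnh4, Kcnh5 and Kcnh7 and the Shaker gene Kcna4 were called lower in FFPE than in frozen SMART-Seq2 wells, and edgeR called no channel gene higher. Of the same families, Kcnq5 (log2 difference -1.42, adjusted p = 0.207), Kcnh1 (-1.60, adjusted p = 0.0640) and Kcnh6 (2.27, adjusted p = 0.379, with all FFPE wells above all frozen wells) were not called. Of 81 members, 39 passed the filter on low counts, and edgeR's quasi-likelihood test called 6 lower and 0 higher at an adjusted p under 0.05 (2 of the 6, Kcna4 and Kcnh4, passed the filter only through their frozen wells), where 4.09% of all 9092 genes tested were called (2.64% lower, 1.45% higher). By family, 5 of 19 voltage-gated (those 2 among them) and 1 of 7 calcium- or sodium-activated members were lower, and 0 of 5 inward rectifiers, 0 of 6 two-pore channels and 0 of 2 partner subunits were called. The median log2 difference of the 39 was -0.01, against -0.13 for all genes tested, but it depended on the fit. It ran from -0.70 (when the well of 50 nuclei treated with room-temperature xylene was dropped) to 0.08 (when the frozen well of 10 nuclei was) over fits that left out 1 well, against -0.25 to 0.01 for all genes, and was -0.75 against -0.37 with nuclei number as a block. At an unadjusted p under 0.05 there were 18. DESeq2 called 12 members (3 higher, 9 lower) and 6.93% of all genes. Without the frozen well of 100 nuclei edgeR called 2 members, and without that of 50 nuclei 3.

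Kcnma1, the pore of the large-conductance channel opened jointly by calcium and voltage (GRCm38 chromosome 14, 23289431 to 24014491, minus strand), had the lowest adjusted p of the 6. It stood at 4247, 3861 and 5391 CPM in the frozen wells of 100, 50 and 10 nuclei. In the same order it stood at 527.2, 641.5 and 2142 CPM with heated xylene, 121.2, 350.1 and 212.7 CPM with mineral oil, and 554.4, 823.8 and 164.4 CPM with room-temperature xylene. All 9 FFPE wells lay below all 3 frozen wells, and the heated xylene well of 10 nuclei came nearest. The log2 difference was -3.40 (SE 0.39, edgeR adjusted p = 4.92e-06).

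Kcnh7, an ERG-type channel of the ether-a-go-go family that opposes repeated firing (chromosome 2, 62693414 to 63184287, minus strand), was at 1301, 1032 and 1119 CPM in the frozen wells. It was at 308.3, 849.4 and 298.0 CPM with heated xylene, 126.5, 139.6 and 23.4 CPM with mineral oil, and 794.9, 501.0 and 294.4 CPM with room-temperature xylene. Every FFPE well was again below every frozen well, and mineral oil gave the 3 lowest. The log2 difference was -2.26 (SE 0.42, adjusted p = 0.00170).

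Its relative Kcnh5, a non-inactivating ether-a-go-go channel (chromosome 12, 74897220 to 75177332, minus strand), was at 379.3, 203.4 and 637.4 CPM in frozen wells. It was at 51.9, 67.6 and 0 CPM with heated xylene, 49.8, 54.4 and 3.9 CPM with mineral oil, and 181.4, 144.7 and 312.6 CPM with room-temperature xylene. The groups overlapped through the room-temperature well of 10 nuclei, and the heated xylene count of 0 allows up to about 4 CPM (4.32 in the shallowest well of that method). The log2 difference was -2.90 (SE 0.73, adjusted p = 0.0213), and it was not called without the frozen well of 100 nuclei (adjusted p = 0.0936) or of 10 nuclei (adjusted p = 0.315).

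Kcnq3 codes for a subunit of the M-current, the slow potassium current that muscarinic receptors shut (chromosome 15, 65986387 to 66286642, minus strand). Its frozen wells were at 906.4, 895.1 and 619.4 CPM. Heated xylene wells were at 296.7, 262.7 and 632.0 CPM, mineral oil wells at 148.1, 177.4 and 91.7 CPM, and room-temperature wells at 291.5, 79.4 and 8.12 CPM. Only the heated xylene well of 10 nuclei reached the frozen range. The log2 difference was -2.33 (SE 0.54, adjusted p = 0.0114), lost without the frozen well of 100 nuclei (adjusted p = 0.0980) or of 50 nuclei (adjusted p = 0.0729).

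Kcna4, a fast-inactivating Shaker channel (chromosome 2, 107290639 to 107298502, plus strand), and Kcnh4, an ELK-type ether-a-go-go channel (chromosome 11, 100740376 to 100759942, minus strand), were low throughout and passed the filter only through their frozen wells, so they had to differ to be tested. Kcna4 was at 42.9, 48.1 and 89.8 CPM in frozen wells, at 0 in all 3 mineral oil wells (which allows up to 7.10 CPM in the shallowest), at 10.1, 14.0 and 1.06 CPM with heated xylene and at 14.3, 7.06 and 2.03 CPM with room-temperature xylene. Kcnh4 was at 45, 33.3 and 40.4 CPM in frozen wells and had counts in 2 of 9 FFPE wells, at 6.73 CPM (mineral oil, 100 nuclei) and 14.3 CPM (room-temperature xylene, 100 nuclei). FFPE and frozen wells did not overlap for either gene. The log2 differences were -4.91 (SE 1.22, adjusted p = 0.0219) and -5.13 (SE 1.43, adjusted p = 0.0441). Leaving out any 1 of the frozen wells ended the Kcna4 call (adjusted p from 0.0984 to 0.219), and Kcnh4 lost its call in 11 of 18 alternatives (adjusted p from 0.0612 to 0.227).

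Kcnq5, another M-current subunit, did not pass in this chemistry. It was at 1164, 995.0 and 1152 CPM in frozen wells and between 17.5 and 2381 CPM in FFPE wells, the lowest with mineral oil and the highest with room-temperature xylene, and its log2 difference was -1.42 (adjusted p = 0.207). The delayed rectifier Kcnb2 was high in both groups, at 844.3, 739.7 and 1151 CPM frozen and between 518.3 and 2464 CPM in FFPE wells (log2 difference 0.49, adjusted p = 0.645). Kcnh1 (log2 difference -1.6, adjusted p = 0.0640) and the sodium-activated Kcnt2 (-2.44, adjusted p = 0.0692) came closest to the threshold among the uncalled lower genes.

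The leak channels Kcnk1 and Kcnk3 and the glial inward rectifier Kcnj10 had values of the opposite sign that did not reach the threshold in edgeR, whereas the leak channels Kcnk2 and Kcnk4 had all FFPE wells below all frozen wells. Kcnk3 and Kcnj10, like Kcnh6, passed the filter on low counts only through FFPE wells, so their sign was tied to the filter, and Kcnk1 would not have passed on its frozen wells alone. Kcnk1, a two-pore leak channel, was at 19.3, 29.6 and 12.3 CPM in frozen wells and between 85.4 and 312.1 CPM in all 9 FFPE wells, with no overlap (log2 difference 2.68, SE 0.81, adjusted p = 0.0668). Kcnk3, an acid-sensitive leak channel (chromosome 5, 30588170 to 30625271, plus strand), was at 6.43, 7.40 and 6.73 CPM in frozen wells and between 30.6 and 127.9 CPM in FFPE wells, again with no overlap (log2 difference 3.07, SE 1.14, adjusted p = 0.157). Kcnj10, the inward rectifier of astrocytes and oligodendrocytes (chromosome 1, 172341210 to 172374085, plus strand), had counts in 1 of 3 frozen wells, at 6.43 CPM, and stood between 0 and 382.8 CPM in FFPE wells (log2 difference 4.85, SE 1.61, adjusted p = 0.106). In the same wells the astrocyte and oligodendrocyte marker sums were also higher, as given above. Members whose 9 FFPE wells were all below the 3 frozen wells numbered 9 (3.68% of all genes with a count) and those all above numbered 3 (2.01%).

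Channels gated by G-proteins, and several low textbook members, were not called. Kcnj3, the main pore partner of the G-protein-gated channel, was at 349.3, 406.9 and 474.7 CPM frozen and between 337.0 and 797.3 CPM in FFPE wells (log2 difference 0.25, adjusted p = 0.864), and Kcnj6 had a log2 difference of -0.76 (adjusted p = 0.671). The axonal Shaker channels Kcna1 (2.35, adjusted p = 0.362) and Kcna2 (1.24, adjusted p = 0.646) and the Shaw channel Kcnc4 (-0.01, adjusted p = 0.998) were not called. Nor were the small-conductance calcium-activated channels Kcnn2 (-0.01, adjusted p = 0.996) and Kcnn3 (-3.52, adjusted p = 0.123), the sodium-activated Kcnt1 (0.31, adjusted p = 0.884), the mechano-gated Kcnk2 (-2.63, adjusted p = 0.282, with all FFPE wells below all frozen wells) or the leak channel Kcnk13 (0.23, adjusted p = 0.966). The Shaker partners Kcnab1 (0.44, adjusted p = 0.886) and Kcnab2 (-0.89, adjusted p = 0.822) and the large-conductance partner Kcnmb4 (0.23, adjusted p = 0.960) also stayed uncalled.

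**Figure D1:**
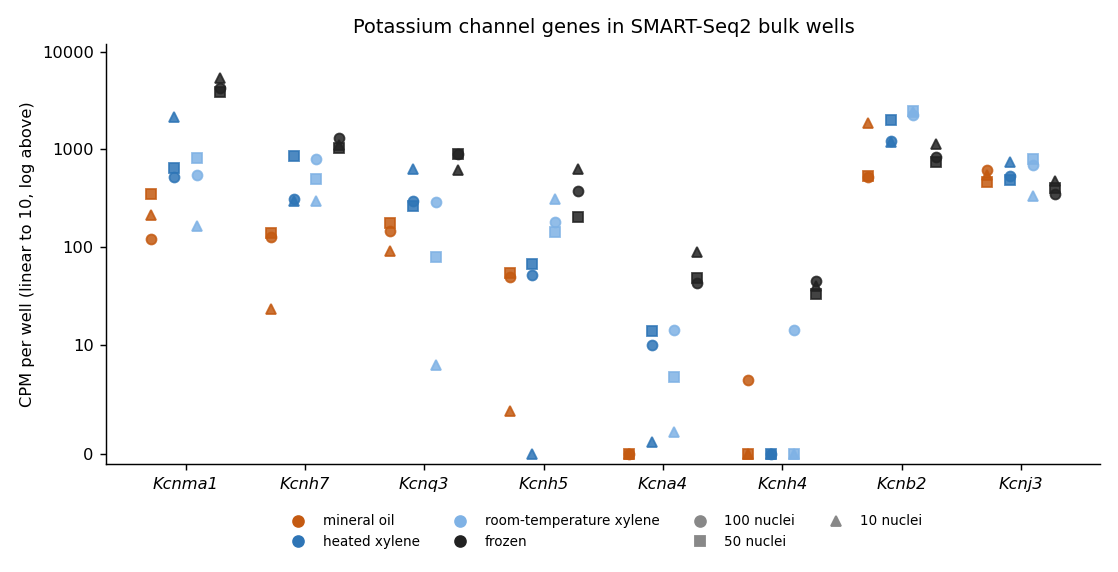
CPM of 8 channel genes in each of the 12 SMART-Seq2 wells, by paraffin-removal method (colour) and nuclei per well (shape), on an axis that is linear to 10 CPM and logarithmic above. The 3 black frozen wells lie above all 9 FFPE wells for Kcnma1, Kcnh7, Kcna4 and Kcnh4, overlap them for Kcnq3 and Kcnh5, and lie among them for Kcnb2.

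In SCRB-seq, M-current and ether-a-go-go genes were lower in FFPE than in frozen wells. Only 11 of 76 members passed the filter on low counts, and edgeR called 5 lower and 0 higher, all of them among 7 voltage-gated members tested, where 58% of all 1478 genes tested were called (27.7% lower, 30.2% higher). The share of members called was therefore below that of all genes. The median log2 difference was -0.59 for the 11 and 0.00 for all genes under TMM scaling. Under DESeq2's size factors the median of all genes moved to -0.58, the split of all calls moved from 447 higher and 410 lower to 309 and 674, and 7 members were called, so the SCRB-seq differences are relative to that shift. No called member changed sign under it. In wells of 100 nuclei alone 10 members were called (4 higher, 6 lower), and in wells of 10 nuclei alone 3 (0 higher, 3 lower). With no filter on low counts 29 were called (8 higher, 21 lower), and with a filter minimum of 3 counts 18 (6 higher, 12 lower). The absence of higher calls thus held for the main filter and not for these wider sets.

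Kcnq5, the M-current subunit with broad cortical expression (chromosome 1, 21398403 to 21961942, minus strand), ran from 651.1 through a median of 1141 to 2726 CPM in frozen wells. Its FFPE wells ran from 0 through 222.0 to 1233 CPM, with medians of 144.9 CPM for mineral oil, 239.0 CPM for heated xylene and 459.6 CPM for room-temperature xylene. Of 48 FFPE wells, 47 lay under the frozen mean, although the ranges overlapped. The log2 difference was -2.21 (SE 0.26, adjusted p = 2.07e-11).

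Kcnq3, which can assemble with Kcnq5, ran from 324.5 through 692.0 to 1155 CPM in frozen wells and from 0 through 94.1 to 821.8 CPM in FFPE wells, with method medians of 21.7, 136.0 and 115.7 CPM in the same order. Again 47 of 48 FFPE wells were under the frozen mean (log2 difference -2.22, SE 0.32, adjusted p = 7.44e-09). Both M-current genes separated most wells, with a few FFPE wells inside the frozen range.

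Kcnh7 showed a smaller gap than in SMART-Seq2, from 170.3 through 854.1 to 1217 CPM in frozen wells and from 0 through 350.1 to 1464 CPM in FFPE wells (log2 difference -0.98, SE 0.26, adjusted p = 9.16e-04). Kcnh1, another ether-a-go-go channel (chromosome 1, 192190774 to 192510159, plus strand), ran from 0 through 257.5 to 473.5 CPM frozen and from 0 through 80.7 to 560.3 CPM in FFPE wells (log2 difference -0.97, SE 0.34, adjusted p = 0.0115). The FFPE and frozen ranges overlapped widely for both. Kcnh1 was not called in wells of 100 nuclei alone (adjusted p = 0.0981) and Kcnh7 not in wells of 10 nuclei alone (adjusted p = 0.167).

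Kcnma1, the channel gene with the lowest adjusted p in SMART-Seq2, was not called in SCRB-seq. It ran from 973.5 through 1263 to 2098 CPM in frozen wells and from 229.3 through 807.9 to 3351 CPM in FFPE wells (log2 difference -0.47, adjusted p = 0.102). Its difference depended on the number of nuclei per well, at -1.20 in wells of 100 and 0.05 in wells of 10, and the test of that change called it (log2 -1.25, SE 0.42, adjusted p = 0.0279), as it did 18.9% of all genes and no other of the 11 members tested.

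Other members tested and not called were Kcnt1 (log2 difference 0.67, adjusted p = 0.0604), Kcnj3 (0.73, adjusted p = 0.0987), Kcnj6 (0.16, adjusted p = 0.770) and Kcnb2 (-0.12, adjusted p = 0.779). Below the filter, the astrocyte-enriched inward rectifier Kcnj16 ran from 0 through 20.98 to 825.5 CPM in FFPE wells and from 0 to 26.6 CPM in frozen wells with a median of 0. Kcnk2 ran from 0 through 17.9 to 242.9 CPM in FFPE wells and from 50.1 through 163.5 to 396.7 CPM in frozen wells. No member had all FFPE wells on 1 side of all frozen wells, which held for 0.147% of all genes below and 0.1% above.

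**Figure D2:**
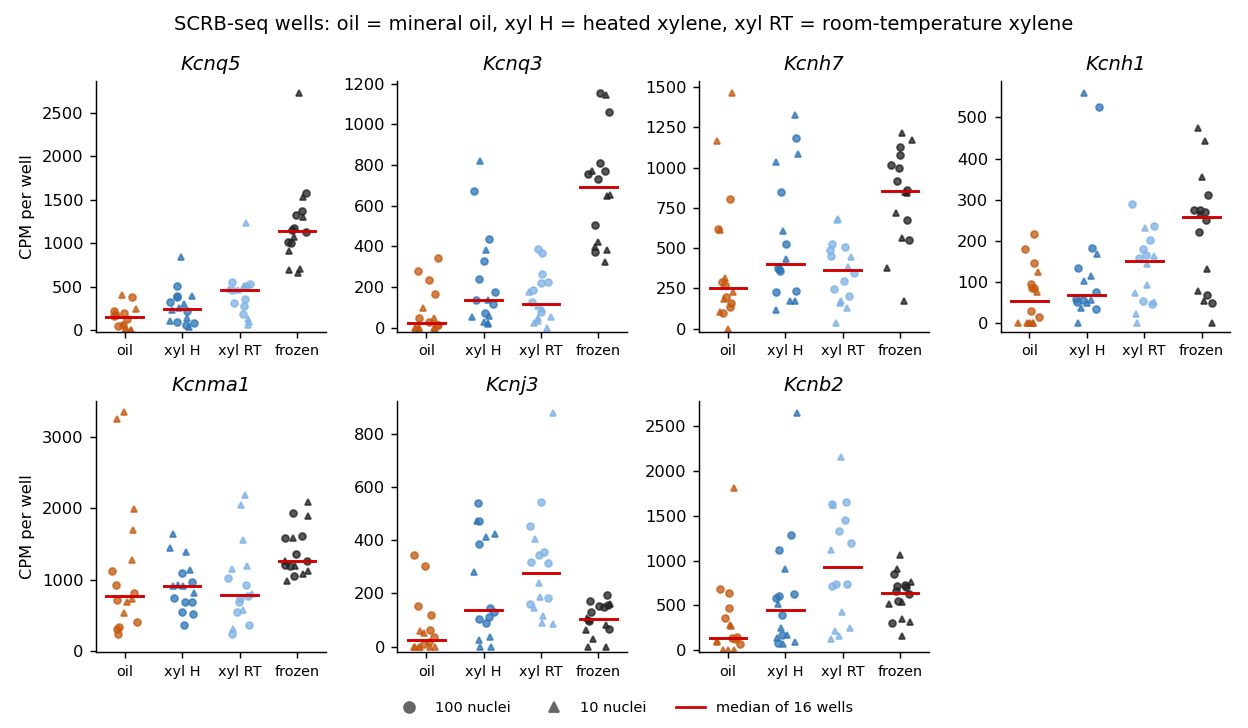
CPM of 7 channel genes in each of 64 SCRB-seq wells, by paraffin-removal method and frozen, with circles for 100 nuclei, triangles for 10 nuclei and a red line at the median of 16 wells. For Kcnq5 and Kcnq3 the frozen medians of 1141 and 692.0 CPM lie far above the FFPE medians, while Kcnj3 and Kcnb2 spread as widely as the frozen wells or more.

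Among the paraffin-removal methods, mineral oil gave lower levels than room-temperature xylene for 3 channel genes in SCRB-seq. The fit on the 48 FFPE wells tested 8 members, of which edgeR called 3 lower and 0 higher, against 10.3% of all 1080 genes (7.78% lower, 2.5% higher). Kcnj3 had a median of 26.7 CPM with mineral oil, 137.0 CPM with heated xylene and 277.0 CPM with room-temperature xylene (log2 difference of mineral oil from room-temperature xylene -1.78, SE 0.51, adjusted p = 0.0156). Kcnb2 had medians of 138.6, 455.0 and 933.8 CPM in that order (-1.59, SE 0.48, adjusted p = 0.0243). For Kcnq5, with the medians given above, the difference was -1.43 (SE 0.42, adjusted p = 0.0185). Mineral oil wells of 10 nuclei were shallow, at 7512 to 20593 mouse counts, against 23015 to 124694 with room-temperature xylene. Kcnj3 was at 0 in most of these mineral oil wells, so its median lies near the floor.

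In the same groups oligodendrocyte and inhibitory markers were also lower with mineral oil, at 181.9 against 1845 CPM and 326.5 against 758.6 CPM with room-temperature xylene, and their part was not tested. These 3 genes followed the same order of medians, with wells of all methods overlapping. The calls were not kept within both well sizes. In wells of 100 nuclei alone, Kcnj3 (adjusted p = 0.127) and Kcnq5 (adjusted p = 0.0909) were not called, and in wells of 10 nuclei alone Kcnb2 (adjusted p = 0.282) and Kcnq5 (adjusted p = 0.0636) were not.

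Against heated xylene, mineral oil gave 0 called members in edgeR (8.52% of all genes were called, 6.94% lower and 1.57% higher) and 3 at an unadjusted p under 0.05, the nearest being Kcnj3 (-1.37, adjusted p = 0.0818). Between the xylene temperatures, 0 members were called (1.94% of all genes, 0.926% lower and 1.02% higher) and 1 passed unadjusted, Kcnt1 (1.31 higher on the log2 scale with heating, adjusted p = 0.0516). In SMART-Seq2, edgeR called 0 of 8372 genes in any pair of methods (0%). Of 34 members tested, 3 passed unadjusted for mineral oil against heated xylene, 0 between the xylene temperatures and 3 for mineral oil against room-temperature xylene, and DESeq2 called 0 members in each pair.

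A list of 27 genes that work with potassium channels was read out beside them, from pumps and transporters that keep the potassium gradient to proteins that anchor or gate the channels. In SCRB-seq, 12 were tested, of which 4 were higher in FFPE and 2 lower, where 30.2% and 27.7% of all genes tested were. Atp1b2 (log2 difference 2.48, adjusted p = 6.50e-06), a glial beta subunit of the sodium-potassium pump, was higher. So were Vapa (2.12, adjusted p = 5.80e-05), a protein of contacts between the endoplasmic reticulum and the surface membrane, and Cntn2 (1.6, adjusted p = 3.64e-04), an adhesion protein of the axon stretch where Shaker channels sit. Ank3, the scaffold of the axon initial segment (-1.06, adjusted p = 1.08e-04), was lower.

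In SMART-Seq2, 23 of the 27 were tested, with 3 higher and 0 lower, where 1.45% and 2.64% of all genes tested were. Among those higher were Calm2 (1.84, adjusted p = 0.00370), a calcium-sensor gene, and Atp1b2 (3.50, adjusted p = 0.0157), which had the same sign in both chemistries. Across the method pairs, Ank3 alone was called, lower with mineral oil than with room-temperature xylene in SCRB-seq (-1.25, adjusted p = 0.0250).

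In single plate nuclei, channel genes again took less of the counts in FFPE than in frozen nuclei. The plate columns name a plate and a well but no sample, and each arm has 2 plates of 1 side of the brain, so no test was made and values are means over nuclei. Of the 143 FFPE nuclei, 9 are not in the batch 2 table, although they carry the annotation of the same plates. Total counts ran from 3491 to 4973791 per FFPE nucleus (median 47887) and from 2476 to 2705541 per frozen nucleus (median 255329). Members held a mean of 0.567% of counts in FFPE and 0.785% in frozen nuclei. Most of this gap lay in Kcnma1 alone, at 387.9 CPM in FFPE and 2223 CPM in frozen nuclei, and the share was not recomputed without it. Of the 82 members in the table, 74 were detected in FFPE nuclei (64 in the batch 2 nuclei alone) and 82 in frozen nuclei. A median of 10 members was detected per FFPE nucleus and 23 per frozen nucleus, or 6 and 12 after each nucleus was thinned to 10000 counts (8 FFPE and 10 frozen nuclei were too shallow and left out). Marker sums differed here too. The excitatory list averaged 896.2 CPM in FFPE (Tbr1 at 0) and 2179 CPM in frozen nuclei, the granule list 816.3 and 50.2 CPM, and the choroid plexus list (Ttr, Folr1 and Kl) 3481 and 684.4 CPM. The inhibitory list averaged 726.7 and 1716 CPM and the astrocyte list 526.1 and 936.1 CPM, both the reverse of the SMART-Seq2 wells, the oligodendrocyte list 2933 and 2065 CPM, and the microglia list 564.5 and 127.8 CPM. Their part in the values below was not tested.

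Of 54 members at 10 CPM or more in either arm, 22 were at least 2-fold lower in FFPE nuclei and 15 at least 2-fold higher, where 34.6% and 28.9% of all 10871 such genes were. Without the 9 nuclei outside batch 2 these numbers were again 22 and 15. Both FFPE plates lay below both frozen plates for 26 members (41.5% of all such genes) and above them for 20 (32.2%). Among the 26 voltage-gated members counted, 12 were lower and 5 higher, and among the 8 inward rectifiers 2 were lower and 4 higher. Of the 9 two-pore channels 3 were lower and 3 higher, and of the 8 calcium- or sodium-activated members 4 and 2. Members just inside the lower threshold included Kcnt2 at 2.50-fold and just outside Kcnb2 at 1.62-fold. On the upper side Kcnh2 was inside at 2.26-fold and Kcnk1 outside at 1.72-fold.

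Of the genes named above as lower in bulk FFPE wells, Kcna4 had a higher mean in FFPE nuclei, and Kcnh5 (24.3 CPM in FFPE and 38.3 CPM in frozen nuclei) had plate means that overlapped, at 17.6 and 30.5 CPM against 19 and 57.9 CPM. Kcnma1 averaged 387.9 CPM in FFPE nuclei (296.2 and 473.4 on the 2 plates) and 2223 CPM in frozen nuclei (2017 and 2432). It was detected in 71 of 143 FFPE nuclei (49.7%, exact 95% interval 41.2 to 58.1) and in 131 of 137 frozen nuclei (95.6%, 90.7 to 98.4). After thinning to equal total counts the shares were 38.5 and 90.6%. Thinning does not match the number of genes per nucleus, whose median before thinning was 1635 in FFPE and 4382 in frozen nuclei.

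Kcnq3 averaged 84.0 CPM in FFPE and 505.3 CPM in frozen nuclei, and was detected in 23.0 and 71.7% after thinning. Kcnh7 averaged 107.3 and 455.0 CPM (20.7 and 55.1% after thinning), but its FFPE plates differed, at 35.6 and 174.2 CPM, and 1 nucleus held 50.2% of its FFPE counts. Kcnq5 averaged 187.3 and 601.8 CPM (28.2 and 70.9% after thinning). All 3 were thus lower on both FFPE plates than on either frozen plate.

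Kcnab2, a beta subunit that binds Shaker channels and aids their trafficking, averaged 45.4 CPM in FFPE and 248.3 CPM in frozen nuclei, although bulk wells did not call it. It was detected in 8.15 and 55.9% after thinning. Kcnh4 had counts in 2 of 143 FFPE and 56 of 137 frozen nuclei, at 0.114 and 49.7 CPM. The mean of Kcna4 went against the bulk wells, at 48.0 CPM in FFPE and 9.29 CPM in frozen nuclei. For this gene, 1 nucleus held 69.3% of the FFPE counts, and detection before thinning ran against the mean. Kcna4 was detected in 5.797 and 8.108% of nuclei on the FFPE plates and in 18.84 and 13.24% on the frozen plates.

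By mean CPM, the highest channel gene in the whole-series FFPE nuclei was Kcnt1, a sodium-activated channel that slows firing after bursts. It stood at 808.6 CPM against 290.4 CPM in frozen nuclei. High too were Kcnb2 (463.3 and 752.1 CPM), Kcnma1, Kcnab3 (333.4 and 117.5 CPM), the G-protein-gated Kcnj6 (317.7 and 209.6 CPM) and Kcnj9 (273.3 and 106.8 CPM), Kcnk10 (248.3 and 27.5 CPM), Kcnk3 (235.6 and 29.3 CPM) and Kcnq5. The leading frozen genes included Kcnma1, Kcnb2, Kcnq5, Kcnq3, Kcnh7, Kcnt1, Kcnab2 and Kcnj6. By summed counts, Kcnb2 and not Kcnt1 led the FFPE nuclei, and in batch 1 the 2 genes averaged 1121 and 133.6 CPM. For Kcnab3, Kcnj9 and Kcnj6 detection ran against the means. Kcnab3 was detected in 10.1 and 13.5% of nuclei on the FFPE plates and 24.6 and 23.5% on the frozen plates, Kcnj9 in 18.8 and 18.9% against 53.6 and 47.1%, and Kcnj6 in 58.0 and 54.1% against 78.3 and 75%. Of the leading 10, 6 were shared, and the leak channels Kcnk10 and Kcnk3, with Kcnj9 and Kcnab3, were among the leading FFPE genes and not among the leading frozen ones.

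Of the leak channels, Kcnk10, opened by stretch and lipids, was detected in 31.9% of FFPE and 13.4% of frozen nuclei after thinning. Kcnk3 was detected in 26.7 and 15.8%. The leak channels Kcnk4, Kcnk5 and Kcnk9 were lower in these FFPE nuclei, at 1.57, 0.0474 and 0.449 CPM against 14.8, 37.1 and 11.9 CPM frozen. Kcnj10 averaged 143.3 and 25.9 CPM and was detected in 20.7 and 13.4% after thinning. Kcnt1, despite its higher FFPE mean, was detected in about equal shares after thinning, 45.2 and 43.3%.

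A second set of FFPE nuclei changed many of these values. The 98 nuclei of batch 1 were compared with the 134 of batch 2 and with the same frozen nuclei, a comparison added after the plate values were seen. Of the 22 members lower in FFPE, 12 were also at least 2-fold lower than frozen in batch 1, where 61.8% of all such genes were. Kcnma1 was among them at 655.2 CPM in batch 1, 389.9 CPM in batch 2 and 2223 CPM frozen, with 1 nucleus holding 57.7% of its batch 1 counts. Kcnab2 (22.2, 44.3 and 248.3 CPM) and Kcnh4 (0.196, 0 and 49.7 CPM) were also low in both batches.

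Genes of the M-current and Kcnh7 were not as low in batch 1. Kcnq3 stood at 395.0 CPM in batch 1 (58.4 and 529.7 CPM on its plates), 85.1 CPM in batch 2 and 505.3 CPM frozen, Kcnq5 at 516.8, 187.6 and 601.8 CPM, and Kcnh7 at 329.8, 93.0 and 455.0 CPM. Kcnh5, called lower in bulk wells, stood at 177.3 CPM in batch 1, 19.4 CPM in batch 2 and 38.3 CPM frozen. Its batch 1 plates were at 376.1 CPM, with 7.14% of 28 nuclei detected, and 97.8 CPM, with 27.1% of 70 detected, so few nuclei carried the higher mean. Kcnt2 was above frozen in batch 1 (260.0 CPM, with plates at 625.7 and 113.7 CPM) and below it in batch 2 (20.8 CPM), with 59.8 CPM frozen. The excitatory marker list averaged 460.1 CPM in batch 1, lower than in the whole-series FFPE nuclei, and its part in these levels was not tested.

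Of the 15 members higher in FFPE, 8 were also at least 2-fold higher in batch 1, where 43.8% of all such genes were. Kcnk10 (142.9, 254.7 and 27.5 CPM in batch 1, batch 2 and frozen), Kcnk3 (89.3, 236.0 and 29.3 CPM), Kcnj10 (54.6, 148.5 and 25.9 CPM) and the strong inward rectifier Kcnj12 (93.8, 137.6 and 5.75 CPM) had higher means in both batches, although on the batch 1 plate of 28 nuclei Kcnk3, Kcnj10 and Kcnj12 stood at 1.86, 13.8 and 0 CPM, below frozen. Kcnt1 (133.6, 859.8 and 290.4 CPM), Kcnj9 (9.56, 283.7 and 106.8 CPM), Kcnab3 (0.0663, 353.9 and 117.5 CPM) and Kcnj8, the ATP-sensitive pore of mural cells (0.159, 111.3 and 0.533 CPM), had opposite directions in the batches. Few nuclei carried the Kcnj8 value, which was detected in 2.90 and 4.05% of nuclei on the FFPE plates of the whole-series table and in 7.25 and 4.41% on the frozen plates. Between the FFPE batches themselves, 17 of 47 members were at least 2-fold higher in batch 1 and 16 at least 2-fold lower, against 33.8% and 34.3% of all genes.

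**Figure D3:**
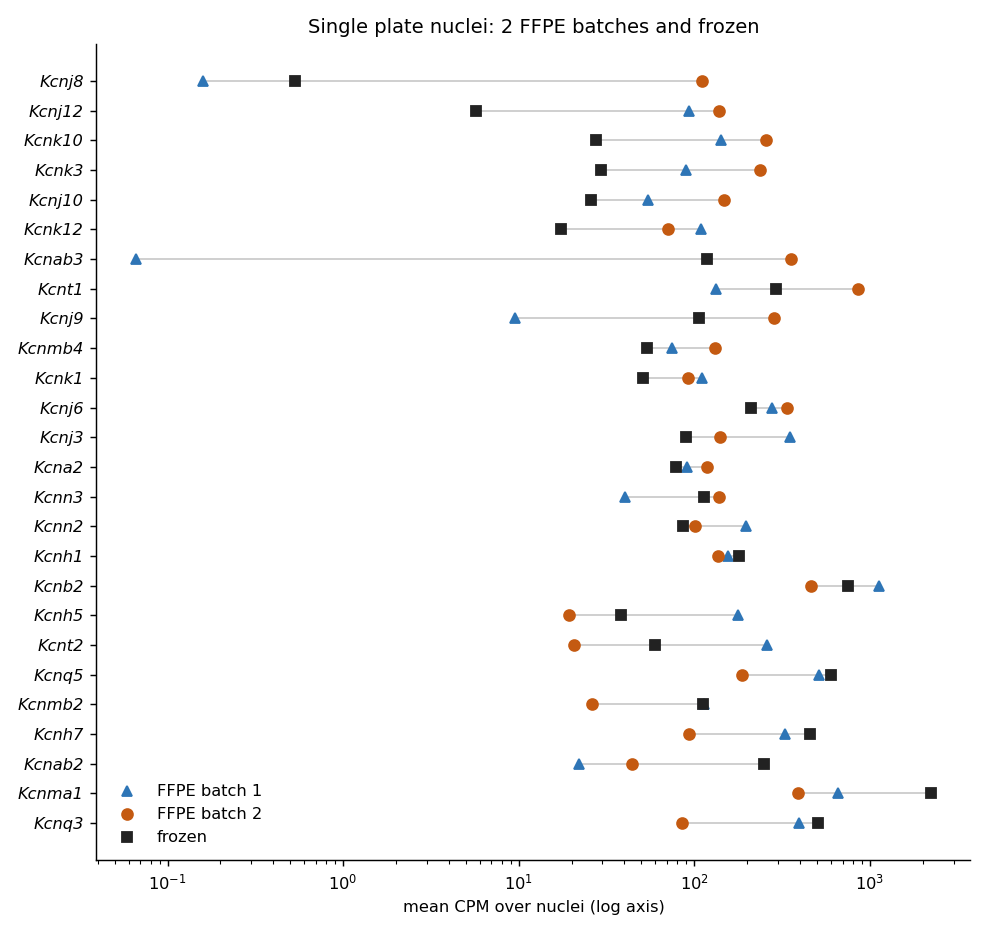
Mean CPM over nuclei (log axis) of 26 channel genes in FFPE batch 1 (blue triangles, 98 nuclei), FFPE batch 2 (orange circles, 134 nuclei) and frozen nuclei (black squares, 137 nuclei). For Kcnma1, Kcnab2, Kcnk10, Kcnk3, Kcnj10 and Kcnj12 both FFPE batches lie on the same side of frozen, whereas for Kcnt1, Kcnj9, Kcnab3 and Kcnj8 frozen lies between them.

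In the droplet nuclei, ERG, large-conductance and M-current genes led. The 7031 nuclei held 2605198 unique molecular identifiers (UMIs, 1 per captured RNA molecule) at a median of 325 per nucleus, and 18771 of them (0.721%) fell on members, 75 of which were detected. Kcnh7 had 2056 UMIs and was seen in 20.5% of nuclei, Kcnma1 had 1935 (20.2%), Kcnq5 1699 (16.8%), Kcnj3 1475 (18.1%), Kcnb2 1245 and Kcnq3 1086. Others among the leading 15 were Kcnq1ot1 with 722, Kcnab1 with 691, Kcna2 with 476, Kcnt2 with 435, Kcnk10 with 425, Kcnh1 with 417 and Kcnj6 with 414. Kcnq1ot1 is an imprinted noncoding RNA transcribed against Kcnq1, and with the strand used in counting not given in the sources used here, its reads and those of Kcnq1 cannot be told apart.

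Classes are the authors' own, and all droplet values come from 1 sample, so intervals cover counting error only and no test was made. The member share of UMIs ran from 0.479% in Endothelial (exact 95% interval 0.424 to 0.539) to 0.943% in ExNeuron6 (0.877 to 1.01). The 6 neuron classes spanned 0.617 to 0.943% and the 6 other classes 0.479 to 0.567%. Excitatory markers were present in every class, at 2069 to 2936 CPM in the non-neuron classes and 1762 to 3225 CPM in the neuron classes, so this list did not separate them, and free RNA was not separated from that of the nuclei. Its part in the class levels was not tested. ExNeuron4 carried more inhibitory markers (2764 CPM) than excitatory ones (1762 CPM), against its name, and is given here by its label. ExNeuron3 had the highest sum of granule markers, at 1273 CPM.

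Pairs of a channel gene and a class that stood apart were about as frequent as for all genes. Of 167 pairs of member and class with at least 20 UMIs, 8 were at least 2-fold over all other nuclei, where 3.67% of all such pairs were. Kcnmb2, a beta subunit that inactivates the large-conductance channel (chromosome 3, 31902507 to 32200180, plus strand), had 423.2 CPM in ExNeuron4 (interval 353.1 to 503.2) and 19.98 CPM elsewhere, a ratio of 21.2 (17.7 to 25.2). Kcnb2 (chromosome 1, 15287254 to 15723750, plus strand) had 2326 CPM in ExNeuron6 (2006 to 2682) and 418.4 CPM elsewhere, a ratio of 5.56 (4.80 to 6.41). These ratios were the highest among the 8 pairs.

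In ExNeuron3, Kcnk10 (chromosome 12, 98429437 to 98578310, minus strand) had 369.5 CPM against 126.8 CPM elsewhere, a ratio of 2.91 (2.46 to 3.43), and the THIK-type leak channel Kcnk12 had 94.9 against 42.4 CPM, a ratio of 2.24 (1.57 to 3.08). In ExNeuron1, the modifier subunit Kcnv1 had 61.6 against 25.3 CPM, a ratio of 2.43 (1.81 to 3.20, and 4.996 in nuclei with at least 300 genes), Kcnt2 263.4 against 122.1 CPM, a ratio of 2.16 (1.88 to 2.46), and Kcnq5 1023 against 479.3 CPM, a ratio of 2.13 (1.99 to 2.28). In Astrocyte, the small-conductance calcium-activated Kcnn2 had 307.6 against 138.8 CPM, a ratio of 2.22 (1.73 to 2.79).

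The other classes had weaker leaders. They were Kcnt1 in ExNeuron2 (185.1 against 120.4 CPM, ratio 1.54), Kcnt2 in ExNeuron5 (292.5 against 160.2 CPM, ratio 1.83), Kcnq3 in OPC (548.6 against 412.9 CPM, ratio 1.33, interval 0.958 to 1.80), Kcnq3 in Oligodendrocyte (478.1 against 414.2 CPM, ratio 1.15, interval 0.862 to 1.51) and Kcnj3 in Endothelial (424.1 against 569.3 CPM, ratio 0.745, interval 0.477 to 1.11). The last 3 intervals include 1. No member reached 20 UMIs in Microglia or Fibroblast.

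Summed over classes, most leading members were higher in neurons. Kcnh7 had 868.2 CPM in the 6 neuron classes (interval 828.7 to 909.2) and 476.1 CPM in the others (418.9 to 538.9), and Kcnma1 had 797.6 and 525.6 CPM. Kcnab1, a Shaker beta subunit, had 127.6 CPM in the others and 2.35 times that in neurons, and Kcnh1 had 178.4 CPM in neurons and 87.6 CPM in the others. Kcnmb2 had 76.9 and 26.7 CPM, but 128 of its 160 neuron UMIs were in ExNeuron4, and in the other neuron classes it stood between 12.3 and 23.1 CPM. Kcnq3 was nearly level, at 422.1 and 396.1 CPM. Going the other way, Kcnj10 had 55.3 CPM in neurons (45.6 to 66.4) and 116.2 CPM in the others (88.9 to 149.2), and Kcnn2 had 142.3 CPM (126.6 to 159.5) and an interval of 163.5 to 242.1 CPM in the others. Of the Kcnn2 UMIs in the others, 72 of 105 were in Astrocyte, while OPC had the lowest Kcnn2 level of all classes, at 78.4 CPM.

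Within glia, Kcnj10 was at 174.7 CPM in Oligodendrocyte (105.2 to 272.8) and 106.8 CPM in Astrocyte (69.1 to 157.6), with overlapping intervals and 19 and 25 UMIs. Singled out after their values were seen, Kcnk13, a leak channel known from microglia, had 14 of its 36 UMIs in Oligodendrocyte (128.7 CPM, 70.4 to 216.0), and Kcnh8 had 9 of its 25 in OPC (117.6 CPM, 53.8 to 223.2). Other textbook glial and vascular members were near the limit of the data, with 32 UMIs for Kcnj16, 4 for Kcnj8 and 4 for Kcnj13, the inward rectifier of choroid plexus. Members listed at 0 UMIs were Kcne1, Kcnab3os, Kcnk18, Kcnj5, Kcnmb1, Kcnmb3, Kcnk7 and Kcnn4, and a count of 0 allows up to 3 UMIs in all.

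**Figure D4:**
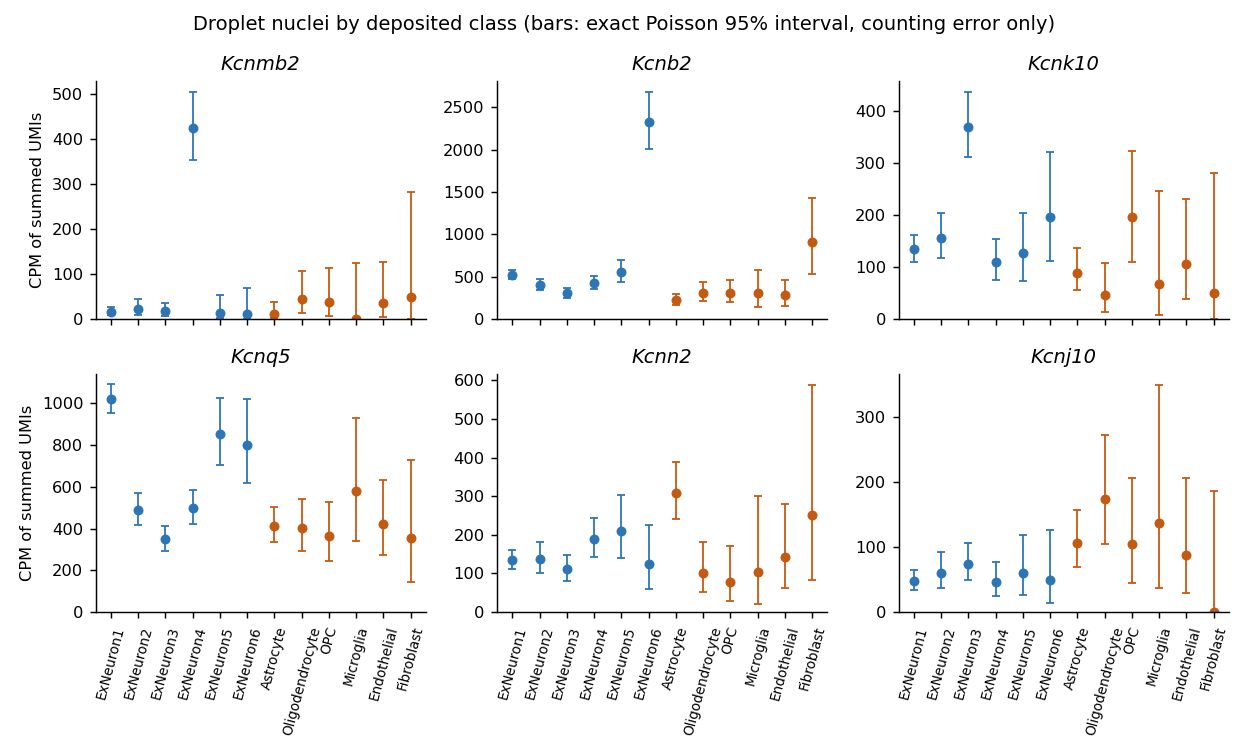
CPM of summed UMIs of 6 channel genes in each of the 12 annotated droplet classes (blue, neuron classes, and orange, other classes), with exact Poisson 95% intervals that cover counting error only. Kcnmb2 peaks in ExNeuron4 at 423.2 CPM, Kcnb2 in ExNeuron6 at 2326 CPM and Kcnk10 in ExNeuron3 at 369.5 CPM, while the Kcnj10 intervals overlap among the glial classes.

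Long genes carried most channel counts in every assay. The members span from 1.54 kb (Kcne1l) to 725.1 kb (Kcnma1) in the GENCODE M21 models, and the 18 members of 100 kb or longer held from 64.8 to 89.5% of all member counts. Spearman's rho between gene length and summed counts across members ran from 0.60 to 0.67 over the 7 sources (76 to 83 members each), against 0.39 to 0.58 across all genes, and is a description over genes of the same libraries. In SMART-Seq2 the 17 long members tested had a median log2 difference between FFPE and frozen of -1.6 and the 22 shorter ones 0.27. In plate nuclei the medians were -0.55 over 18 long and 0.06 over 36 shorter members. In SCRB-seq, 8 long and 3 shorter members had medians of -0.72 and -0.59. Without a cut at 100 kb, rho between gene length and the log2 difference was -0.26 in SMART-Seq2, -0.06 in plate nuclei and -0.25 in SCRB-seq. The share of member counts on long genes was 77.0% in FFPE and 89.5% in frozen SMART-Seq2 wells, and 64.8 and 69.0% in FFPE and frozen plate nuclei.

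Divided by exon length, levels can be set side by side between genes. In frozen plate nuclei Kcnma1 was at 130.9 CPM per exon kb, Kcnq5 at 78.3, Kcnb2 at 49.6, Kcnh7 at 29.9, Kcnk1 at 22.7 and Kcnk3 at 7.36. In FFPE plate nuclei Kcnk3 was at 59.2 CPM per exon kb, Kcnk1 at 39.1, Kcnb2 at 30.5, Kcnq5 at 24.4, Kcnma1 at 22.9 and Kcnh7 at 7.05. These FFPE values are those of the whole-series nuclei, and batch 1 was not set on this scale. The sources used here do not say whether intron reads were counted, and nuclear RNA is rich in them, so a level per exon length is uncertain for long genes.

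**Figure D5:**
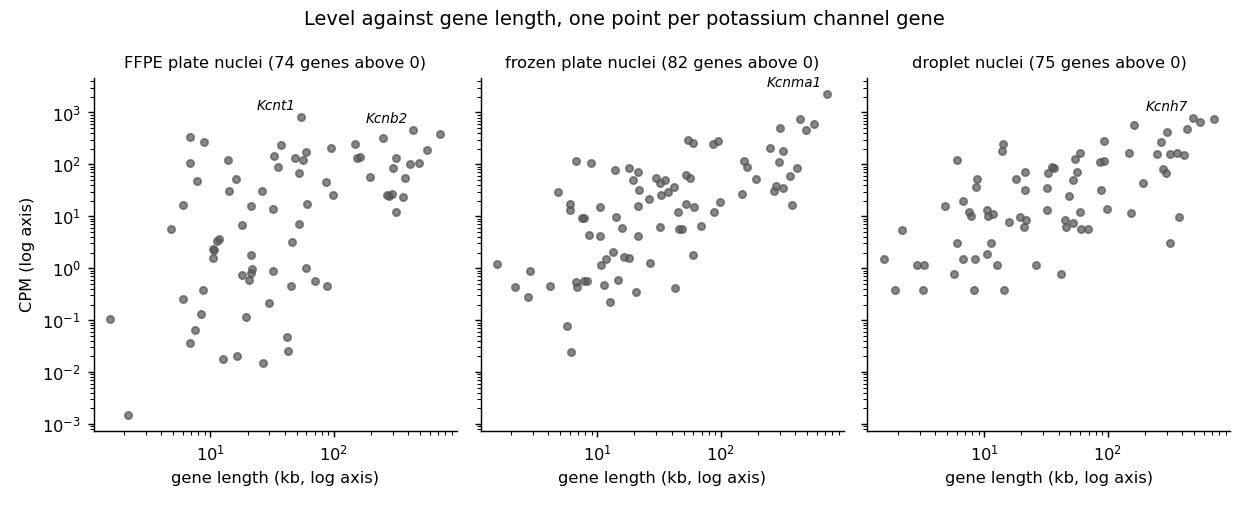
Level in CPM against gene length in kb (both log axes), 1 point per channel gene above 0, in FFPE plate nuclei (74 genes), frozen plate nuclei (82 genes) and droplet nuclei (75 genes). Longer genes are higher in all 3 panels, with Kcnma1 at the top in frozen nuclei, Kcnh7 in droplet nuclei and the shorter Kcnt1 in FFPE nuclei.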

How the data were processed

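RNA was measured in bulk wells (SCRB-seq, SMART-Seq2), plate nuclei (SMART-Seq2) and droplet nuclei. The authors deposited whole-number counts per gene and well or nucleus, aligned to mm10 and hg19 per the submitters' processing notes. The aligner, the counter, strand, intron counting and UMI collapse in SCRB-seq were not given in the sources used here. In SCRB-seq, mouse rows were kept and 10653 human rows left out. Method, nuclei per well, frozen status, hemisphere and droplet class come from the deposited annotation tables. The 134 batch 2 nuclei are also in the whole-series table, with 0 differing values over 21117 shared genes. All 7031 droplet barcodes were distinct. Doublet handling is not given and no caller was run.

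Channel genes were found by symbol. The members, gene lists and comparisons were chosen with earlier results of these data known. Wells were fitted with edgeR 4.0.16 (R 4.3.3): TMM scaling, filterByExpr with a minimum count of 10, the quasi-likelihood test, and Benjamini-Hochberg adjustment over all genes tested, called at 0.05. The FFPE against frozen contrast is the mean of the 3 methods minus frozen. CPM are counts per 1000000 mouse counts. Alternatives were DESeq2 1.42.0 (default and local dispersion fit), its size factors, other filters, nuclei number as a block, wells of 1 size and leaving out wells. The scripts were tested on simulated data. Plate nuclei were averaged as CPM (Python 3.11, scipy 1.17.1), with exact binomial 95% intervals and thinning to 10000 counts. Droplet UMIs were summed per class, with exact Poisson 95% intervals.

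Named genes are every member called in a contrast, the 15 with most droplet UMIs, the leading member of each class, the 10 highest in each plate arm, and textbook members. A few genes that the rule names and the counts include are not reported here. The 2-fold, 10 CPM, 20 UMI and 100 kb limits, the grouping of classes into neuron and other, the test across nuclei numbers, the filter minimum of 3, the local fit, the batch 1 comparison and the promoter set were chosen after values were seen. Genes were matched to GENCODE M21 models (GRCm38), with all 89 matched. Genes antisense to a channel (Kcnd3os, Kcnmb4os2, Kcnq1ot1) share reads with it that cannot be told apart.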

Additional observations from a re-analysis of the deposited data

Results flagged for a closer look

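Kcnma1 was the 1 channel gene whose difference between FFPE and frozen SCRB-seq wells changed with the number of nuclei per well. The log2 difference was -1.20 in wells of 100 nuclei and 0.05 in wells of 10 nuclei, a change of -1.25 (SE 0.42, edgeR adjusted p = 0.0279). The same test called 280 of 1478 genes (18.9%) and 1 of 11 members. Each method and nuclei number was 1 library pool, so pool and nuclei number cannot be told apart. Among the 8 SCRB-seq groups of 8 wells, 0 had a well whose member share stood apart from the rest.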

How the results depend on the processing

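No paired analysis was possible because the wells carry no replicate numbers, so nuclei number was fitted as a block instead. In FFPE against frozen that block gave 8 called members and 429 genes in SMART-Seq2 and 6 members and 882 genes in SCRB-seq. Of 14 called gene results, 5 kept their call in every alternative run, 9 lost it in at least 1 and 0 reversed. With no filter on low counts, called members numbered 29 (SCRB-seq FFPE against frozen), 17, 11 and 10 (mineral oil against heated xylene, heated against room-temperature xylene, mineral oil against room-temperature xylene), 10 in SMART-Seq2 FFPE against frozen, and 1 and 1 in its mineral oil pairs. A filter minimum of 3 gave 18, 5 and 3 in the first 3 SCRB-seq contrasts. Wells of 100 nuclei gave 10, 2, 1 and 1 in the 4 SCRB-seq contrasts, and wells of 10 nuclei gave 3 for FFPE against frozen and 0 for mineral oil against room-temperature xylene. Nuclei number as a block gave 2 and 1 for mineral oil against heated xylene and for heated against room-temperature xylene.

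In SMART-Seq2, FFPE against frozen had 12 called members with DESeq2 and 14 with its local fit, which gave 1 and 1 in the mineral oil pairs. Leaving out 1 well gave 2 to 9, with 2 without the frozen well of 100 nuclei and 3 without that of 50. In all genes, calls moved from 372 to 630 (DESeq2), 790 (local fit) and 162 to 469 (leave-one-out). SCRB-seq FFPE against frozen moved from 857 to 4785 (no filter), 2096 (minimum of 3) and 478 (10 nuclei). Its method pairs moved from 92, 21 and 111 to 3415, 2899 and 2925 (no filter), 511, 248 and 477 (minimum of 3), 256, 117 and 178 (100 nuclei) and 143, 62 and 201 (nuclei number as a block). Between the xylene temperatures DESeq2 gave 36 genes, its local fit 40 and wells of 10 nuclei 14. The cause was not tested. In droplet nuclei with at least 300 genes, the ratio of Kcnv1 in ExNeuron1 was 4.996 and of Kcnk10 in ExNeuron3 3.67. Plate counts of 22 lower and 15 higher members stayed within 21 to 23 and 12 to 17.

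Depth limits most low members. A well count of 0 in SCRB-seq allows up to 18.0 CPM in the deepest well and 399.4 CPM in the shallowest, so a 0 does not show absence. Members under that level could still be counted in a well.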
